A study of Mus musculus with 28 samples.

Results

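The genes described here are 32 genes of lysosomal enzymes, membrane proteins, the proton pump and their transcription factors, chosen by name and matched by symbol to the Ensembl identifiers of the count files. All 32 were found among the 56748 identifiers. They were followed in 28 libraries of total RNA, depleted of ribosomal RNA, from a pair of mouse mammary epithelial lines. HC11 cells are untransformed and serve as a common model of milk gland differentiation. 4T1 cells come from a mouse mammary tumour and can spread to other organs when grafted. There were 10 HC11 libraries that carried the treatment labels DOX and DIP together, 8 4T1 libraries labelled DOX and 10 HC11 libraries labelled DOX, so all 3 groups share the label DOX. Neither abbreviation is spelled out in the labels, which name no dose, time, construct, clone or culture. The libraries of a group may therefore differ in ways the labels do not give, such as a construct, and the SDs, SEs and p-values hold any such difference. In work on HC11, DIP is the usual short form for dexamethasone, insulin and prolactin. Both lines are labelled as mammary epithelial cells, with the genotype untransformed for HC11 and cancer for 4T1.

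Lysosomes are acidic compartments in which proteins, glycans and lipids are broken down by hydrolases that work at low pH. A proton pump, the V-ATPase, acidifies them, glycosylated membrane proteins such as LAMP1 and LAMP2 line their membrane, and the products leave through transporters and through the sterol carriers NPC1 and NPC2. TFEB and TFE3, transcription factors of the MiT/TFE family, bind a motif with the core CACGTG near the start of many lysosomal genes and are held in the cytoplasm by mTORC1 signalling at the lysosome. In the mammary gland lysosomal proteases are best known from involution, when milk-producing cells are cleared after weaning.

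Depth was between 134117581 and 222065843 counts in the HC11 DOX + DIP libraries, between 174275141 and 198008179 in the 4T1 libraries and between 135955692 and 185616382 in the HC11 DOX libraries. Levels are given as CPM, counts scaled to library size with TMM factors over all libraries. A gene was called where its adjusted p was under 0.05 in the quasi-likelihood test of edgeR, adjusted after Benjamini and Hochberg over every gene tested. Nothing in the labels says that libraries of a group came from separate cultures, so the p-values measure the spread between these libraries, which may be partly technical. Within groups, certain libraries were close to each other. Libraries 7 and 9 with DIP had 162 and 151 CPM of Mcoln1, against 31.0 to 73.2 CPM in the rest. HC11 DOX libraries 8 and 10 had 5.37 and 5.89 CPM of Arsa, against 9.84 to 22.2 CPM in the rest. If such libraries are not independent, the SEs and p-values are too small. Some libraries stood apart from their group. HC11 DOX + DIP libraries 8 and 10 had 22.8 and 23.5 CPM of Fkbp5, a glucocorticoid target, against 195 to 534 CPM in the other 8 libraries with DIP and 28.1 to 49.9 CPM in the HC11 DOX libraries. Other genes differed from HC11 DOX in both libraries. Tsc22d3 was at 35.4 and 48.0 CPM, against 241 to 435 CPM in the other 8 and 13.1 to 28.8 CPM in HC11 DOX. Mki67 was at 8.81 and 10.1 CPM, against 3.22 to 27.9 CPM in the other 8 and 88.6 to 396 CPM in HC11 DOX. 4T1 libraries 1 and 2 had 63.8 and 96.3 CPM of the basal keratin gene Krt5, against 10.6 to 24.7 CPM in the other 6. HC11 DOX library 5 had 88.6 CPM of the proliferation marker Mki67, against 199 to 396 CPM in the rest of its group. Where leaving out libraries 8 and 10 with DIP, or 4T1 libraries 1 and 2, changed the call of a member or of another named gene, or moved a list's count by over 1.5 times, the value without them is given.

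The promoter sequences of some members carry the core of the motif that TFEB and TFE3 are known to bind. Stretches with a longer palindrome, or with 4 cores, are shown to make the motif visible beside the genes' values. RefSeq promoter windows (GRCm38.p6, 250 bases before to 50 after each annotated start) were at hand for 27 of the 32 genes, all but Ctsb, Ctsh, Asah1, Npc1 and Atp6v1h. The letters CACGTG, which read the same on both strands, occurred in 12 of the 27 genes (44.4%) and in 8.09% of all 27025 genes with a window. The longer palindrome TCACGTGA, which contains CACGTG, occurred in 5 of the 27 (18.5%) and in 1.12% of all genes. A still longer form, TCACGTGA with a G before and a C after it, was also looked for. It occurred in 0 of the 27 and in 0.37% of all genes. For a form this rare, its absence from 27 genes says little. In what follows, capitals mark TCACGTGA in the stretches of these 5 genes and each CACGTG in that of Lamp1.
Ctsa (chr2:164833735-164833802, plus strand): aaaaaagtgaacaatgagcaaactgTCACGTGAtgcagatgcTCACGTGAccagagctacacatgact
Ctsd (chr7:142387894-142387951, minus strand): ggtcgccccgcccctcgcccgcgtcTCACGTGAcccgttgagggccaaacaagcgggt
Mcoln1 (chr8:3500448-3500505, plus strand): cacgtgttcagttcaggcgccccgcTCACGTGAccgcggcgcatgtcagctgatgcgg
Atp6v0d1 (chr8:105566036-105566093, minus strand): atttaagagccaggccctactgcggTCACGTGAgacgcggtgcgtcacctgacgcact
Gla (chrX:134601168-134601255, minus strand): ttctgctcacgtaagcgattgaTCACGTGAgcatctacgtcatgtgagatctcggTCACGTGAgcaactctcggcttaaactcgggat
Lamp1 (chr8:13159075-13159176, plus strand): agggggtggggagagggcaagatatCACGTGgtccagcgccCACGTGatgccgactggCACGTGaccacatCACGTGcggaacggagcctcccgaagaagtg
Ctsa and Gla each held TCACGTGA at 2 places, and Lamp1 held CACGTG at 4 places, from 61 to 15 bases before its start. The stretch of Mcoln1 opens with a further CACGTG, left in lower case. The other members with CACGTG in their window were Ctsf, Ctsl, Lgmn, Gaa, Glb1 and Arsa. These matches describe the letters of the reference, not binding.

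**Figure D1:**
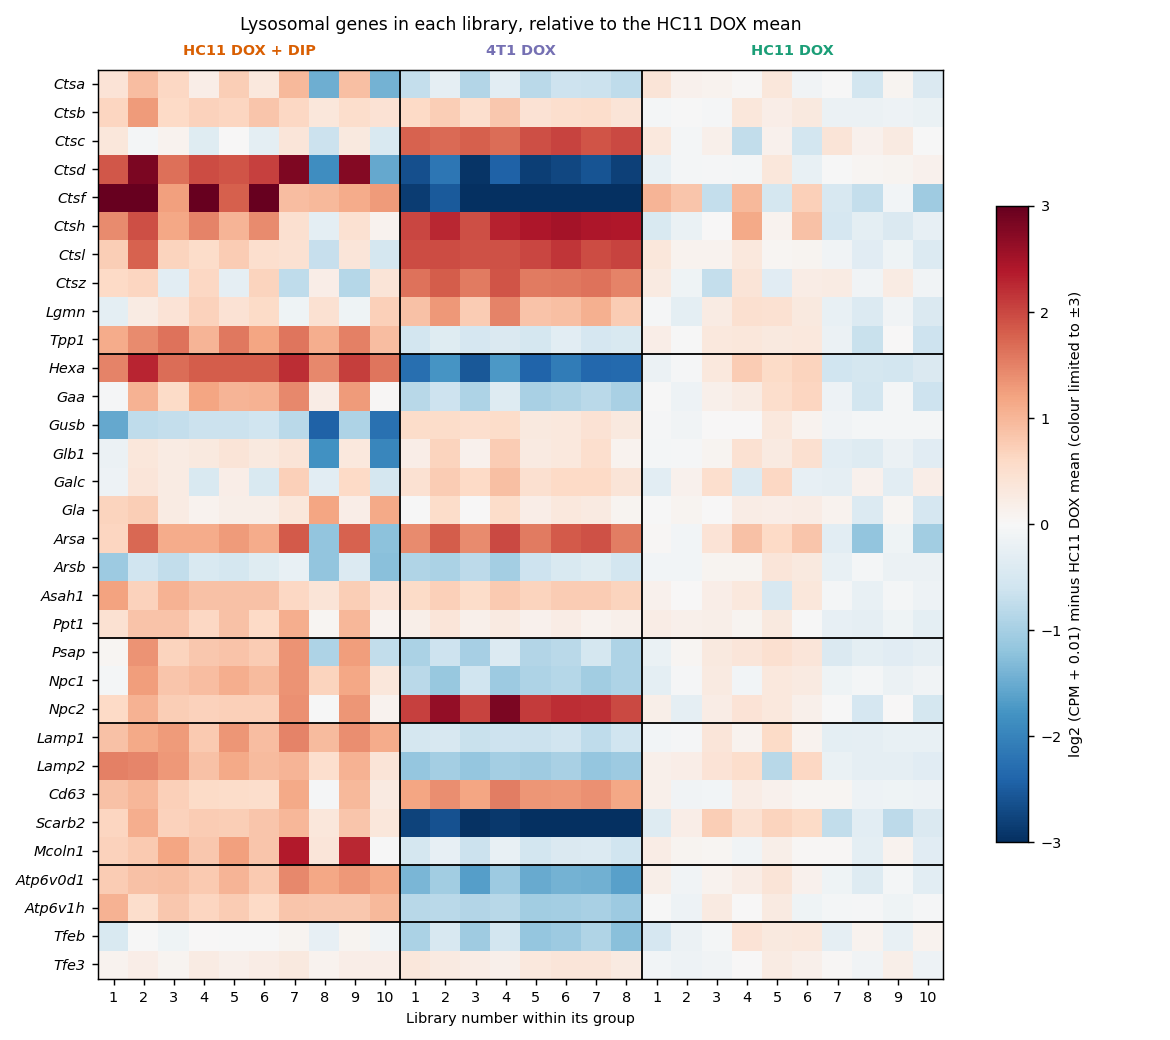
Level of each of the 32 genes (rows, grouped by role: proteases, other hydrolases, lipid handling, membrane proteins, proton pump, transcription factors) in each of the 28 libraries (columns), as log2 (CPM + 0.01) minus the mean of the HC11 DOX libraries, with the colour limited to ±3. Red prevails in the HC11 DOX + DIP block, with blue for Ctsd, Ctsa, Glb1, Gusb and Arsa in its libraries 8 and 10, and the 4T1 block is divided between red and blue rows.

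The first comparison asked how the lysosomal genes of HC11 cells with DIP stood against those without it. Of the 32 genes, 23 rose with DIP, 2 fell and 7 did not pass the test. Over all 23829 genes tested 45.5% were called, 24.5% as higher and 21.0% as lower. The median log2 fold change of the members was 0.71, and that of all genes tested 0.06. At least 2-fold rises numbered 8 among the members and such falls 0, against 10.7% and 9.53% of all genes, and the groups did not overlap for 7 of the 32, against 11.4% of all genes. Without HC11 DOX + DIP libraries 8 and 10, 24 members rose, 2 fell and the median was 0.82, with 52.4% of all genes called.

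Among the 10 acid proteases 6 rose and 0 fell, and the median log2 fold change was 0.65. Ctsd (ENSMUSG00000007891), the main aspartic protease of the lysosome, had 314 CPM in the lowest, 4344 at the median and 8080 in the highest library with DIP, against 979, 1133 and 1459 CPM in the HC11 DOX libraries. Its log2 fold change was 2.01 ± 0.41 (SE, adjusted p = 3.99e-04), and 8 of the 10 libraries with DIP lay above every HC11 DOX library while libraries 8 and 10 lay below every one. Without these libraries the log2 fold change was 2.30 (adjusted p = 5.64e-10). The annotated gene Gm49369 shares 808 exon bases with Ctsd on the same strand, 34.4% of the exon bases of Ctsd, and it moved with it (1.99 ± 0.41), so that reads of the pair may not be told apart.

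The other proteases that rose were Ctsf, Tpp1, Ctsh, Ctsb and Ctsl. Tpp1, a tripeptidyl peptidase, had 60.1, 78.4 and 98.6 CPM with DIP (lowest, median and highest library) and 20.04, 34.2 and 40.1 CPM in HC11 DOX libraries. The groups did not overlap, and the log2 fold change was 1.31 ± 0.14 (adjusted p = 2.02e-07). Ctsf, a cysteine protease, was low throughout, at 0.913 to 6.44 CPM under DIP and 0.224 to 0.984 CPM without, and rose by 2.41 ± 0.45 on the log2 scale. Within each group its level was uneven: libraries 1, 2, 4 and 6 had 4.04 to 6.44 CPM with DIP, against at most 1.69 CPM in the other 6, and HC11 DOX libraries 1, 2, 4 and 6 had 0.794 to 0.984 CPM, against at most 0.451 CPM in the other 6. The library numbers are names only and pair no libraries. Ctsh, an aminopeptidase, rose 1.96-fold (adjusted p = 0.00609), and Ctsb, the most studied cysteine cathepsin, rose 1.61-fold (adjusted p = 4.09e-05), with 9 of 10 libraries with DIP above every HC11 DOX library for Ctsb.

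Ctsl, an endopeptidase of the papain family, had 119, 277 and 655 CPM under DIP and 143, 201 and 243 CPM in HC11 DOX libraries (log2 fold change 0.62 ± 0.22, adjusted p = 0.0282). The call rested on few libraries: the adjusted p was 0.0712 without HC11 DOX + DIP library 2, which was far above the rest, 0.0512 without HC11 DOX library 10 and 0.0834 under limma voom. Libraries 8 and 10 lay below every HC11 DOX library for Ctsl too, and without both the log2 fold change was 0.80 (adjusted p = 4.65e-04). Ctsa, a carboxypeptidase that protects beta-galactosidase and neuraminidase, did not pass at 0.43 ± 0.26 (adjusted p = 0.185), with 6 libraries with DIP above and libraries 8 and 10 below every HC11 DOX library. Without both it was at 0.66 (adjusted p = 3.49e-04), and the adjusted p was 0.0430 without library 8 alone and 0.0475 without library 10 alone. Lgmn, which cleaves after asparagine, was at 0.32 ± 0.16 (adjusted p = 0.0996, and 0.0454 without HC11 DOX + DIP library 1), Ctsz, a carboxypeptidase, at 0.18 ± 0.20 and Ctsc, which activates granule proteases of immune cells, at -0.05 ± 0.16, so none of these 3 was called. Ctsz was uneven with DIP, at 30.4 to 45.8 CPM in libraries 3, 5, 7 and 9 and 62.7 to 87.0 CPM in the rest. The HC11 DOX libraries had 33.6 to 72.1 CPM of Ctsz.

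Of the 10 hydrolases of glycans, sulfated substrates and lipids, 6 rose and 2 fell (median log2 fold change 0.63). Hexa (ENSMUSG00000025232), the alpha subunit of beta-hexosaminidase, had 136, 176 and 245 CPM with DIP as lowest, median and highest library, against 33.1, 46.8 and 85.4 CPM in the HC11 DOX libraries. All libraries with DIP, 8 and 10 included, lay above every HC11 DOX library, and the log2 fold change was 1.78 ± 0.19 (adjusted p = 1.76e-07). Asah1, the acid ceramidase, ran from 65.3 to 115 CPM under DIP and from 35.3 to 62.6 CPM without, again with no overlap (0.80 ± 0.12, adjusted p = 1.08e-05).

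Smaller or less even rises were those of Gaa, which degrades glycogen (1.79-fold), Ppt1, a thioesterase that removes palmitate from proteins (1.62-fold), Gla, the alpha-galactosidase A gene (1.47-fold), and Arsa, which removes sulfate from sulfatides (1.99-fold). Gla was the only member for which libraries 8 and 10, at 17.6 and 17.0 CPM, both lay above the other 8 libraries with DIP, which ran from 8.23 to 12.8 CPM. The HC11 DOX libraries had 5.45 to 9.06 CPM of Gla. Arsa had an adjusted p of 0.0268, which became 0.0519 without HC11 DOX + DIP library 7, 0.0504 without library 9 and 0.0917 under limma voom.

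The 2 members that fell with DIP were Gusb and Arsb, both of which act on glycosaminoglycans. Gusb, the beta-glucuronidase gene, had 13.3, 41.3 and 47.4 CPM under DIP and 66.0, 69.1 and 88.6 CPM in HC11 DOX libraries, with no overlap (log2 fold change -0.99 ± 0.20, adjusted p = 3.18e-04). Arsb, the arylsulfatase of dermatan sulfate, ran from 18.1 to 37.0 CPM under DIP and from 36.8 to 55.0 CPM without (-0.63 ± 0.13, adjusted p = 5.66e-04). Glb1, the beta-galactosidase gene that serves as a senescence marker, stood at 0.02 ± 0.26, with 8.61 and 7.77 CPM in libraries 8 and 10, 26.6 to 39.7 CPM in the other 8 libraries with DIP and 23.2 to 42.1 CPM in HC11 DOX. Galc, which degrades galactosylceramide, was at 0.07 ± 0.18 and was not called.

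All 3 genes of sphingolipid and cholesterol handling rose. Psap, the precursor of the saposins that help hydrolases reach sphingolipids, had 279, 915 and 1362 CPM under DIP and 396, 508 and 737 CPM in HC11 DOX libraries (log2 fold change 0.71 ± 0.25, adjusted p = 0.0241). Libraries 8 and 10 were below every HC11 DOX library for Psap, and without both its log2 fold change was 0.93 (adjusted p = 1.28e-04). Its adjusted p was 0.0502 without HC11 DOX + DIP library 2 and 0.0898 under limma voom. Npc1, the membrane protein of cholesterol export, rose 1.89-fold (adjusted p = 3.48e-05), and Npc2, its soluble partner, rose 1.72-fold (adjusted p = 7.84e-04).

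All 5 membrane proteins rose, with a median log2 fold change of 1.02. Lamp1 (ENSMUSG00000031447), a major glycoprotein of the lysosomal membrane, had 946, 1198 and 1530 CPM under DIP and 445, 525.9 and 815 CPM in HC11 DOX libraries. The groups did not overlap, libraries 8 and 10 included, and the log2 fold change was 1.14 ± 0.12 (adjusted p = 1.56e-07). Lamp2, which also serves in chaperone-mediated autophagy, rose 2.02-fold, with 238 to 520 CPM under DIP and 103 to 280 CPM without.

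Mcoln1, the lysosomal calcium channel TRPML1, had 31.0, 55.4 and 162 CPM under DIP and 24.7, 32.6 and 36.8 CPM in HC11 DOX libraries, a log2 fold change of 1.26 ± 0.25 (adjusted p = 2.72e-04). Library 10 with DIP lay inside the HC11 DOX range, and the other 9 lay above it. The highest were libraries 7 and 9, at 162 and 151 CPM, while the rest with DIP ran from 31.0 to 73.2 CPM. Cd63, a tetraspanin of late endosomes, rose 1.64-fold, and Scarb2, the receptor that carries beta-glucocerebrosidase to the lysosome, rose 1.58-fold. The copy Cd63-ps held 20.1% as many counts as Cd63 and rose 1.65-fold, so reads of the pair may have been divided between them.

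Both members of the proton pump rose. Atp6v0d1, a subunit of the membrane sector, had 133, 152 and 210 CPM under DIP and 59.3, 79.0 and 103 CPM in HC11 DOX libraries (log2 fold change 1.04 ± 0.11, adjusted p = 1.87e-07). Atp6v1h, a regulatory subunit of the soluble sector, had 117, 143 and 167 CPM under DIP and 73.3, 79.9 and 98.5 CPM without (0.80 ± 0.08, adjusted p = 6.59e-08). Neither gene showed overlap between the groups, and libraries 8 and 10 stood among the other libraries with DIP for both.

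The transcription factor genes differed little in level. Tfeb had 12.7, 17.3 and 18.6 CPM under DIP and 12.4, 17.7 and 23.2 CPM in HC11 DOX libraries (-0.08 ± 0.12, adjusted p = 0.629). Tfe3 had 41.2, 44.5 and 47.3 CPM under DIP and 34.8, 37.9 and 46.2 CPM without, a rise of 0.20 ± 0.07 on the log2 scale with overlap (adjusted p = 0.0358). For Tfe3 the adjusted p was between 0.0506 and 0.0677 without any 1 of HC11 DOX libraries 1, 2, 3, 7, 8 and 10 or of HC11 DOX + DIP libraries 2, 4, 6 and 7, and 0.123 with no filter on low counts. Counts of messenger RNA do not show where these factors are in the cell.

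**Figure D2:**
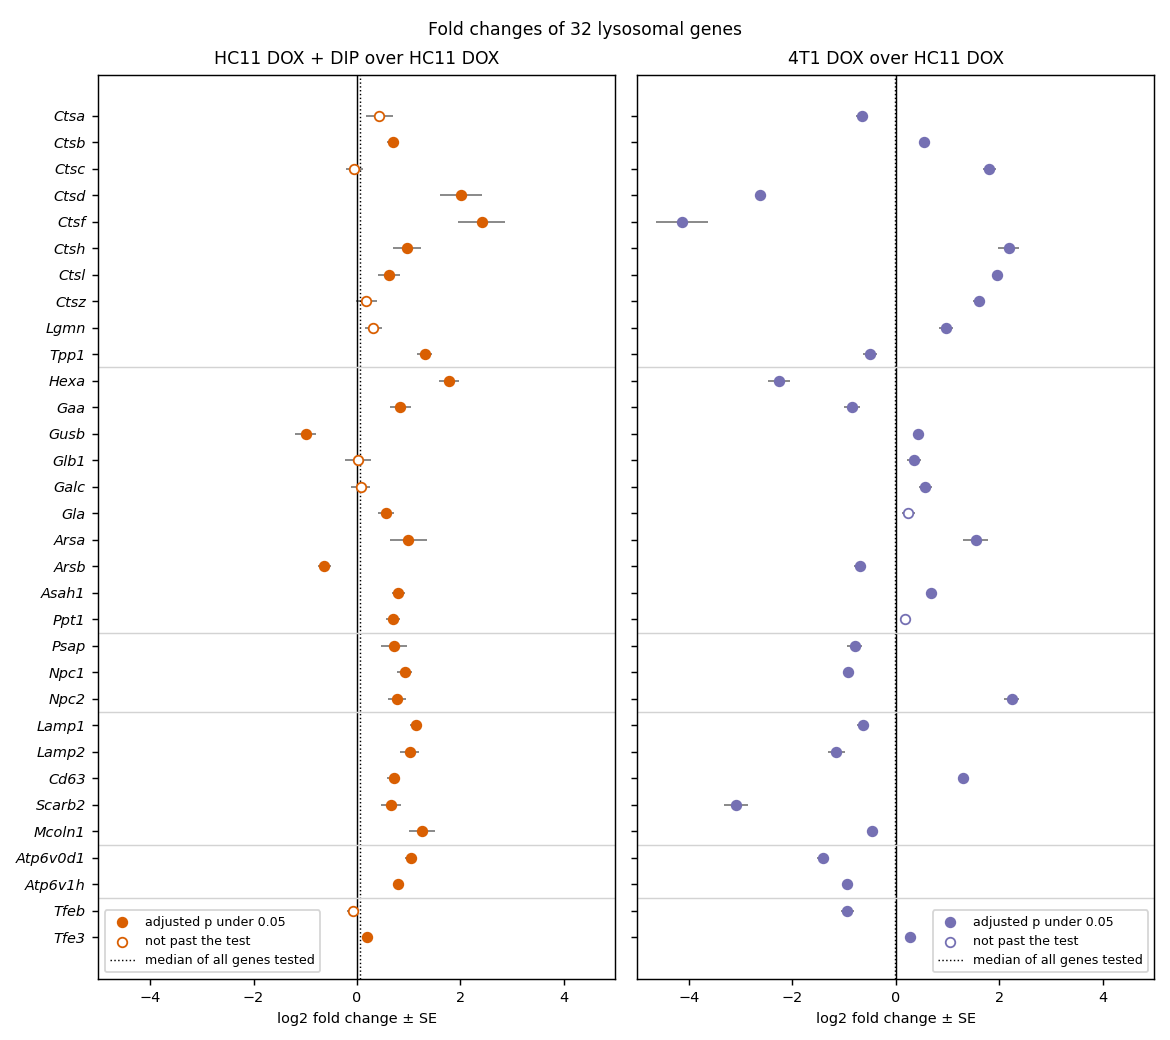
Log2 fold change with its SE for each of the 32 genes (rows, grouped by role), for HC11 DOX + DIP over HC11 DOX on the left and 4T1 DOX over HC11 DOX on the right, with filled points for an adjusted p under 0.05 and a dotted line at the median of all genes tested. With DIP 23 filled points lie right of zero and 2 left of it, and in 4T1 14 lie right and 16 left. The panels share the HC11 DOX libraries.

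HC11 DOX + DIP libraries 8 and 10 divided the members. For 18 of the 32 both lay below all 8 other libraries with DIP, for 1 both lay above, and for 13 neither held. Against the HC11 DOX range, library 8 had 9 members above, 8 below and 15 inside it, and library 10 had 12 above, 9 below and 11 inside. In each of the other 8 libraries with DIP between 19 and 24 members lay above that range and 2 or 3 below it. The members above every HC11 DOX library in both libraries 8 and 10 were Hexa, Tpp1, Lamp1, Asah1, Gla, Npc1, Atp6v0d1 and Atp6v1h. Ctsd, at 314 and 398 CPM, Ctsa, at 32.5 and 33.8 CPM, Psap, at 279 and 320 CPM, Glb1, Arsa, Ctsl, Gusb and Arsb lay below every HC11 DOX library in both. The summed level of the 32 genes was 3759 and 4082 CPM in libraries 8 and 10, 8738 to 14620 CPM in the other 8 and 3587 to 5125 CPM in HC11 DOX. Much of this gap came from Ctsd, which alone ran from 3627 to 8080 CPM in the other 8 and from 979 to 1459 CPM in HC11 DOX. What sets these libraries apart was not tested here.

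**Figure D3:**
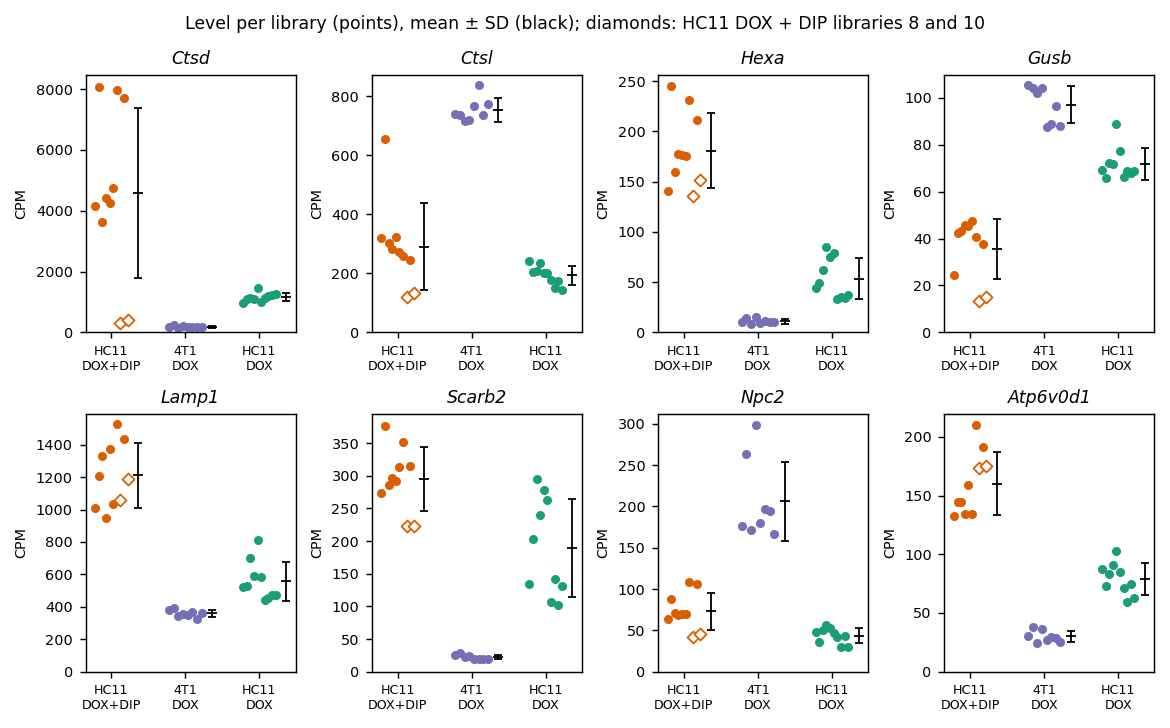
CPM of 8 members in each library (points) with the mean ± SD in black, on axes that start at 0, for HC11 DOX + DIP (n = 10), 4T1 DOX (n = 8) and HC11 DOX (n = 10), with open diamonds for HC11 DOX + DIP libraries 8 and 10. The diamonds lie with the other libraries with DIP for Hexa, Lamp1 and Atp6v0d1 and below the HC11 DOX points for Ctsd, Ctsl and Gusb, and the 4T1 points are near the base line for Ctsd, Hexa and Scarb2.

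The second comparison set 4T1 against HC11, both labelled DOX, and asked how the cancer line differs from the untransformed line. Its HC11 libraries are those of the first comparison. Of the 32 genes, 14 were higher in 4T1, 16 were lower and 2 were not called. The lines differed at most genes: 69.9% of 23875 genes tested were called, 34.3% as higher and 35.6% as lower. The median log2 fold change of the members was -0.14, and that of all genes was -0.01. At least 2-fold differences numbered 7 higher and 6 lower among the members, against 12.6% and 20.1% of all genes. The groups did not overlap for 20 of the 32 members, against 36.8% of all genes. Without 4T1 libraries 1 and 2 the counts were again 14 and 16, with 66.4% of all genes called.

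The proteases were all called in 4T1, 6 higher and 4 lower. Ctsd had 149, 179 and 256 CPM in 4T1 (lowest, median and highest library) and 979, 1133 and 1459 CPM in HC11 DOX libraries, a log2 fold change of -2.63 ± 0.10 (adjusted p = 2.19e-14). Ctsl had 717, 739 and 839 CPM in 4T1 and 143, 201 and 243 CPM in HC11 DOX (1.96 ± 0.10, adjusted p = 1.07e-12). The groups did not overlap for either gene.

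Further cysteine proteases were higher in 4T1, and none of those named next overlapped between the groups. Ctsh had 59.8, 80.7 and 89.3 CPM in 4T1 and 11.2, 13.5 and 34.4 CPM in HC11 DOX libraries, a 4.53-fold difference. Ctsc had 25.7 to 33.0 CPM in 4T1 and 4.82 to 10.5 CPM in HC11 DOX (3.52-fold), and Ctsz had 154 to 201 CPM in 4T1 and 33.6 to 72.1 CPM in HC11 DOX (3.06-fold). Ctsb was 1.47-fold higher, and Lgmn, also a cysteine protease, 1.96-fold higher (adjusted p = 4.27e-06).

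Ctsf, Ctsa and Tpp1 were lower in 4T1, besides Ctsd. Ctsf had 41 counts in all in 7 of the 8 4T1 libraries, at most 12 in 1, and 915 counts in the HC11 DOX libraries, 35 to 175 in each. Its log2 fold change was -4.14 ± 0.50, and -4.78 without 4T1 libraries 1 and 2, where it was highest, at 0.0576 and 0.0757 CPM. Ctsa was 1.57-fold lower and Tpp1 1.41-fold lower, both with overlap between the groups.

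Of the 10 other hydrolases 5 were higher, 3 lower and 2 not called. Hexa had 8.55, 10.2 and 15.3 CPM in 4T1 and 33.1, 46.8 and 85.4 CPM in HC11 DOX libraries, with no overlap (log2 fold change -2.26 ± 0.21, adjusted p = 1.16e-08). Arsa ran between 32.5 and 48.4 CPM in 4T1 and between 5.37 and 22.2 CPM in HC11 DOX, also with no overlap (1.54 ± 0.24, adjusted p = 8.16e-06). Gaa was 1.80-fold lower and Arsb 1.63-fold lower, while Asah1 was 1.59-fold higher, Galc 1.48-fold, Gusb 1.35-fold and Glb1 1.27-fold higher.

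The smallest of these differences depended on the fit. Glb1 (0.35 ± 0.13, adjusted p = 0.0250) reached only 0.196 when all 3 groups were fitted together, and 0.0504 without 4T1 library 7. Gla (0.24 ± 0.12, adjusted p = 0.0760) and Ppt1 (0.18 ± 0.09, adjusted p = 0.0817) were not called. Gla reached 0.0369 without 4T1 library 1, and Ppt1 reached 0.0467 without HC11 DOX library 5, 0.0496 without 4T1 library 5 and 0.0486 with no filter on low counts.

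The partners of cholesterol export went in opposite directions. Npc2 had 167, 187 and 299 CPM in 4T1 and 29.3, 45.1 and 55.9 CPM in HC11 DOX libraries (log2 fold change 2.24 ± 0.14, adjusted p = 3.77e-11). Npc1 had 9.83, 11.4 and 14.2 CPM in 4T1 and 17.7, 20.7 and 26.8 CPM in HC11 DOX (-0.93 ± 0.10, adjusted p = 1.23e-07). Neither showed overlap between the groups. Psap was 1.74-fold lower in 4T1 (adjusted p = 3.14e-05), with overlap.

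Among the membrane proteins 4 were lower and Cd63 was higher. Scarb2 (ENSMUSG00000029426) had 18.7, 21.4 and 28.9 CPM in 4T1 and 102, 173 and 295 CPM in HC11 DOX libraries, 8.52-fold lower (log2 fold change -3.09 ± 0.23, adjusted p = 2.64e-10). Lamp2 was 2.21-fold lower, at 81.5 to 93.0 CPM in 4T1 and 103 to 280 CPM in HC11 DOX, and Lamp1 1.56-fold lower, both without overlap.

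Cd63 had 306, 338 and 392 CPM in 4T1 and 122, 134 and 159 CPM in HC11 DOX (1.30 ± 0.07, adjusted p = 3.45e-12), and Cd63-ps was 2.43-fold higher. Mcoln1 was 1.38-fold lower (adjusted p = 9.90e-05, and 0.0797 with all 3 groups fitted together). Both pump members were lower in 4T1 without overlap, Atp6v0d1 2.65-fold, at 24.7 to 37.8 CPM against 59.3 to 103 CPM in HC11 DOX, and Atp6v1h 1.93-fold. Tfeb was 1.92-fold lower, at 7.36, 8.69 and 12.5 CPM in 4T1 and 12.4, 17.7 and 23.2 CPM in HC11 DOX (adjusted p = 2.51e-06), with overlap by 1 library. Tfe3 was 1.21-fold higher (adjusted p = 0.00173).

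Per kilobase of annotated exon, which allows levels of different genes to be compared, Ctsd had the highest mean of the members in both HC11 groups and not in 4T1. In HC11 DOX + DIP the mean was 1944 ± 1190 CPM per kilobase for Ctsd (SD, n = 10), 453 ± 74.5 for Lamp1 and 319 ± 143 for Psap, although Lamp1 stood above Ctsd in libraries 8 and 10. In HC11 DOX libraries these genes stood in the same order, at 492 ± 59.0, 209 ± 45.0 and 199 ± 47.7 CPM per kilobase (n = 10), with overlapping ranges of Lamp1 and Psap. In 4T1 Lamp1 (134 ± 7.79), Ctsz (119 ± 11.6), Ctsl (116 ± 6.13) and Psap (115 ± 18.1 CPM per kilobase, n = 8) led, and neighbours in this order had overlapping ranges. Cd63 (91.9 ± 8.05) and Ctsd (79.5 ± 14.6 CPM per kilobase) followed. The lowest member in each group was Ctsf, at 0.568 ± 0.455 CPM per kilobase with DIP, 0.00609 ± 0.00522 in 4T1 and 0.109 ± 0.0608 in HC11 DOX.

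Members with and without CACGTG in their promoter window both rose with DIP. Of the 12 with it, 9 rose and 0 fell at a median log2 fold change of 0.92, and of the 15 without it, 9 rose and 2 fell with a median of 0.66. Between 4T1 and HC11 DOX, 4 of the 12 were higher and 7 lower (median -0.55), and 7 of the 15 were higher and 7 lower (median 0.18). The difference between these medians was not tested.

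Lists of 114 other genes of the lysosomal pathway were read beside the members. With DIP 71 of the 109 tested rose and 3 fell (Prcp, Gnptab and Nagpa), the median log2 fold change being 0.59, and without libraries 8 and 10 the counts were 79 and 3. In 4T1 22 of 110 were higher and 55 lower, with a median of -0.27, and without 4T1 libraries 1 and 2 the counts were 22 and 52. The share called was 67.9% with DIP, against 45.5% of all genes, and 70.0% in 4T1, against 69.9% of all genes. Over all genes 24.5% were higher and 21.0% lower with DIP, and 34.3% were higher and 35.6% lower in 4T1. By list the share called in 4T1 ran from 53.8% (MiT/TFE relatives and mTORC1) to 87.5% (V-ATPase subunits). CACGTG was found in 25.6% and TCACGTGA in 12.2% of the 90 of these genes with a promoter window. TCACGTGA with a G before and a C after it was found in 2.22% of the 90. From each list up to 3 genes with the lowest adjusted p in each comparison are named in what follows.

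Of 16 other V-ATPase subunits 15 rose with DIP and 0 fell. Atp6v0b, of the proteolipid ring, had 109, 134 and 168 CPM under DIP and 43.9, 52.3 and 60.8 CPM in HC11 DOX (1.39 ± 0.09, adjusted p = 5.32e-11). Atp6v1g1 (1.03 ± 0.10) and Atp6v1b2 (0.76 ± 0.08), of the soluble sector, rose without overlap too. In 4T1 10 of the 16 were lower and 4 higher, led by Atp6v1a, the catalytic subunit (-1.23 ± 0.07), Atp6v1b2 (-0.88 ± 0.07) and Atp6v1e1 (-1.14 ± 0.09).

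In autophagy 12 of 16 genes rose with DIP and 0 fell. The cargo receptor gene Sqstm1 had 407, 510 and 592 CPM under DIP and 146, 185 and 232 CPM in HC11 DOX (1.44 ± 0.10, adjusted p = 1.74e-10). Map1lc3b (3.63-fold) and Gabarapl1 (1.70 ± 0.15 on the log2 scale), which encode proteins of the autophagosome membrane, rose without overlap. In 4T1 10 of these genes were lower and 1 higher, and without 4T1 libraries 1 and 2 10 were lower and 2 higher. Ulk1, the starting kinase, was at -1.43 ± 0.09 in 4T1. Atg7, which activates the conjugation of LC3, was at -1.10 ± 0.07 and Map1lc3a at -1.95 ± 0.20.

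Among the MiT/TFE relatives and the mTORC1 machinery 9 of 13 tested genes rose with DIP and 0 fell. Flcn, the folliculin gene, whose product acts on the RagC and RagD GTPases, had 43.0, 48.8 and 73.6 CPM under DIP and 18.7, 24.4 and 26.7 CPM in HC11 DOX (1.15 ± 0.11, adjusted p = 2.29e-08). Rragc (0.76 ± 0.09) and the folliculin partner gene Fnip1 (1.12 ± 0.20) rose as well. Mitf, of the same factor family as Tfeb, rose 2.04-fold with DIP and was 2.82-fold lower in 4T1, where 5 of the 13 were lower and 2 higher. Rptor, which encodes the Raptor subunit of mTORC1, was at -1.08 ± 0.10 in 4T1 and Lamtor5 at 0.71 ± 0.07. With DIP Rptor was at 0.42 (adjusted p = 0.0281), and it was not called without libraries 8 and 10 (0.18, adjusted p = 0.117).

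Of 29 other hydrolases tested 16 rose and 1 fell with DIP, and without libraries 8 and 10 22 rose and 1 fell. Idua was among those called only without them (0.54, adjusted p = 0.00968, against 0.40 and an adjusted p of 0.0881 with them). Dpp7, a dipeptidyl peptidase, rose 8.53-fold, at 0.542 to 6.52 CPM under DIP and 0.227 to 0.529 CPM in HC11 DOX. Smpd1, the acid sphingomyelinase, rose by 0.89 ± 0.13 on the log2 scale without overlap. In 4T1 7 of 30 were higher and 13 lower. Acp5, the tartrate-resistant phosphatase known from osteoclasts, had 3132 to 4263 counts in each 4T1 library and 25 counts in all over 5 of the 10 HC11 DOX libraries, against which a fitted fold has little meaning. Dpp7 was higher (2.75 ± 0.17) and Idua, which acts on heparan and dermatan sulfate, 4.31-fold lower in 4T1.

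Of 23 other membrane genes 15 rose and 0 fell with DIP. Lmbrd1, of lysosomal cobalamin export, had 74.2, 87.3 and 116 CPM under DIP and 17.7, 24.8 and 29.1 CPM in HC11 DOX (1.91 ± 0.12, adjusted p = 4.29e-11), and Slc38a9, the arginine sensor of mTORC1 (1.09 ± 0.12), and Laptm4a (0.86 ± 0.10) rose without overlap. In 4T1 6 were higher and 10 lower: Cln3 was higher at 2.18 ± 0.14, Laptm4b at 0.89 ± 0.10, and Abcb9, a peptide transporter, was 28.7-fold lower.

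Enzyme sorting was less uniform, with 3 of 9 genes higher and 2 lower with DIP. Gnptg, the gamma subunit of the enzyme that adds the mannose 6-phosphate tag, rose (1.23 ± 0.19), while Gnptab, which encodes its alpha and beta subunits (-0.66 ± 0.11), and Nagpa, the uncovering enzyme (-0.51 ± 0.15), fell. In 4T1 6 of the 9 were lower and 1 higher. Sort1, the sorting receptor sortilin, had 1.40, 1.86 and 2.87 CPM in 4T1 and 11.2, 32.1 and 47.7 CPM in HC11 DOX, 14.7-fold lower, M6pr, a mannose 6-phosphate receptor gene, was at -0.88 ± 0.07, and the adaptor gene Gga1 was higher at 0.93 ± 0.05.

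Of the cystatins, inhibitors of cysteine cathepsins, Cst3 rose with DIP. It had 164, 4598 and 5474 CPM under DIP and 149, 195 and 275 CPM in HC11 DOX libraries (log2 fold change 4.21 ± 0.48, adjusted p = 3.26e-07), with library 8 the lowest with DIP. Of the libraries with DIP 8 lay above every HC11 DOX library, and the rest lay inside the HC11 DOX range. Without libraries 8 and 10 its log2 fold change was 4.51. In 4T1 Cst3 was 1.90-fold lower (adjusted p = 1.65e-05) and Cstb was at 0.49 ± 0.10 (adjusted p = 1.24e-04). Cst6 was not called in either comparison (0.68 ± 0.43 with DIP, 0.58 ± 0.27 in 4T1), nor was Cstb with DIP (0.23 ± 0.12). Without libraries 8 and 10 all 3 cystatins were called higher with DIP, against 1 with them, Cstb at 0.33 (adjusted p = 0.00565) and Cst6 at 0.95 (adjusted p = 0.0239).

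**Figure D4:**
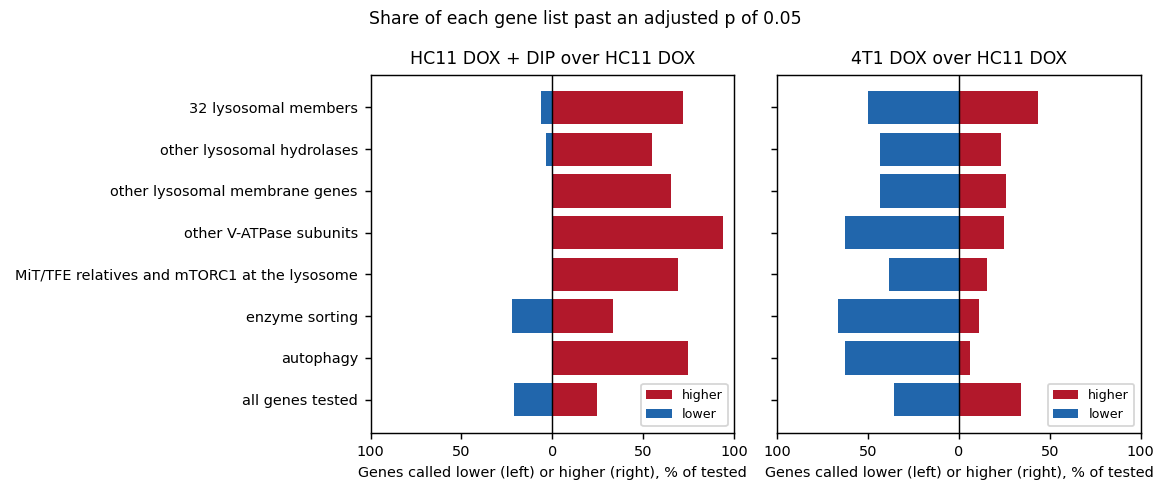
Share of the tested genes of each list but the cystatins called higher (right, red) or lower (left, blue) at an adjusted p under 0.05, for HC11 DOX + DIP over HC11 DOX and for 4T1 DOX over HC11 DOX, with all genes tested in the bottom row. With DIP the bars of all lists shown reach further right than the 24.5% of all genes. In 4T1 the lists shown have more genes lower than higher, as have all genes tested (35.6% and 34.3%).

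Markers of other cells and of cycling were read beside the lysosomal genes, since macrophages are rich in lysosomes. Of the 8 leukocyte markers 3 were at or near 0 in all groups: Ptprc had 4 counts in all with DIP, 28 in 4T1 and 9 in HC11 DOX, Adgre1 had 4, 0 and 6, and Tyrobp had 0, 2 and 0. Summed over the 8 markers the level was 12.1 to 23.9 CPM with DIP, 19.1 to 25.9 CPM in 4T1 and 8.48 to 13.7 CPM in HC11 DOX, most of it from Csf1r and Cd14. Csf1r ran from 10.8 to 14.5 CPM in 4T1 and from 6.70 to 9.57 CPM in HC11 DOX, 1.47-fold higher in 4T1 without overlap, and was not called with DIP. Cd14 was 2.45-fold higher with DIP (adjusted p = 0.00924) and 3.55-fold higher in 4T1 (adjusted p = 1.44e-05), while Lyz2 and Fcer1g were lower in 4T1, so that 2 of 4 tested markers were higher there and 2 lower. The 6 fibroblast markers summed to 20.8 to 264 CPM with DIP, 9.05 to 14.5 CPM in 4T1 and 32.8 to 91.9 CPM in HC11 DOX, and Thy1 was at or near 0 throughout. The 6 epithelial markers summed to 444 to 2211 CPM with DIP, 2134 to 3038 CPM in 4T1 and 3446 to 7996 CPM in HC11 DOX, and Cdh1 was above 197 CPM in every library. The 4 markers of cycling cells summed to 14.6 to 130 CPM with DIP, 1318 to 1650 CPM in 4T1 and 543 to 1262 CPM in HC11 DOX. All 4 fell with DIP, each with all 10 libraries below every HC11 DOX library, and all 4 were higher in 4T1. Among the fibroblast markers 3 of 5 tested rose with DIP (Pdgfrb, Dcn and Lum) and 4 of 5 were lower in 4T1. Of the leukocyte markers 1 of 4 tested rose with DIP, and 2 rose without libraries 8 and 10. Of the epithelial markers Cdh1, Krt5 and Krt14 fell with DIP and Krt18 rose. In 4T1 Krt8 was 7.55-fold and Krt18 57.6-fold higher, while Krt5 was 100-fold, Krt14 8.07-fold and Epcam 2.66-fold lower, and Cdh1 was not called. The means of Krt5 and Krt14 in HC11 DOX were 3070 and 1974 CPM. The part of these markers in the results on lysosomal genes was not tested. In bulk libraries fewer cells of a kind and less RNA per cell cannot be told apart.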

How the data were processed

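Total RNA was extracted with TRIzol and NEBNext Ultra II libraries were made after removal of ribosomal RNA, per the labels' protocols. Each library came as 1 deposited file of whole read counts by Ensembl gene. Per the submitters' processing notes the tools were fastp 0.23.2 and featureCounts 2.0.1 with the build GRCm39; for aligner, annotation release and use of strand the entry is not given in the sources used here, so genes that overlap on opposite strands may share reads, among them Ctsa with Pltp (10.5% of the exon bases of Ctsa) and Ctsb with Fdft1 (12.8%). Further such overlaps included Hexa with Tmem202 (12.8% of the exon bases of Hexa), Npc1 with Rmc1 (4.5%) and Ppt1 with Cap1 (3.5%). Cap1 held 385% as many counts as Ppt1, and Rmc1 85.4% as many as Npc1. Symbols and union exon lengths came from GENCODE vM21 (GRCm38), which named 52073 of 56748 identifiers.

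Groups followed the cell line and treatment labels, and library numbers are names in the order of the series. No library was a copy of another (chi-square per degree of freedom at least 16.3 within a group). Each comparison was fitted on its own groups with edgeR 4.0.16 under R 4.3.3 (filterByExpr, TMM, robust glmQLFit, glmQLFTest, Benjamini-Hochberg). Each SE was taken as the absolute log2 fold change over the root of F. On simulated data with 200 changed genes, edgeR recovered 19.4% of 1.5-fold and 70.1% of 2-fold changes for DIP (23531 genes tested, 6 false calls) and 47.8% of 1.5-fold and 85.1% of 2-fold changes for 4T1 (23558 genes, 8 false calls). The simulation changed far fewer genes than the 45.5% and 69.9% called in the data. It also held no libraries that stood apart, so its shares may not hold for the real comparisons. Alternatives were DESeq2 1.42.0, limma 3.58.1 voom, other scalings, no filter, a fit of all 3 groups and libraries left out.

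The members, the other gene lists and the libraries set apart were chosen with earlier results of these data known. All members are named, and of each other list the 3 tested genes with the lowest adjusted p in each comparison. A result that this rule would name is not reported here.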

Additional observations from a re-analysis of the deposited data

Results flagged for a closer look

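Of 96 sets of values checked (32 genes in 3 groups), 4 held a library far from the rest of its group by Dixon's criterion, where chance gives about 1 in 20. The criterion compares the extreme library with its nearest neighbour. It therefore misses libraries that stand apart together, such as HC11 DOX + DIP libraries 8 and 10 for Ctsd, at 314 and 398 CPM. Ctsl was at 655 CPM in HC11 DOX + DIP library 2, with the next library at 323 CPM. Ctsb was at 449.6 CPM in the same library, with the next at 329 CPM. Ctsl was at 839 CPM in 4T1 library 6, with the next at 774 CPM. Gusb was at 88.6 CPM in HC11 DOX library 5, with the next at 77.1 CPM.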

How the results depend on the processing

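Under the other scalings, DESeq2, limma voom, no filter, the fit of all 3 groups and the libraries left out, between 20 and 24 members were higher and 2 lower with DIP, and between 13 and 15 were higher and 15 or 16 lower in 4T1. Outside the 1-library omissions, 27 of 32 members kept their call under every alternative with DIP and 29 in 4T1. When each library was left out in turn (38 fits, chosen after seeing the data), 26 and 29 kept it. Each such fit still held any library close to the one left out. No call reversed. With DIP the changes concerned Tfe3, Ctsl, Arsa, Psap, Ctsa and Lgmn, and in 4T1 Glb1, Mcoln1, Ppt1 and Gla. The causes were not tested. The median of all genes moved by less than 0.1 on the log2 scale under either other scaling. No paired analysis was possible because the labels number no replicates. A count of 0, as for Ctsf in 4T1 library 7, allowed up to 0.0172 CPM there, before scaling by the TMM factor and with counting error only.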
